A study of Mus musculus with 4 samples.

Results

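The CD4 T cells with a helper profile described here were 904 of the 39009 cell barcodes in 4 single-cell RNA libraries from mouse spleen. They were selected as barcodes that are absent from the deposited annotation of germinal center (GC) B cells and have under 8% of their UMIs (unique molecular identifiers, each counted as 1 captured RNA molecule) in mitochondrial genes. Each also held at least 2 UMIs over the T cell receptor subunits Cd3e, Cd3d and Cd3g, at least 1 UMI of the co-receptor gene Cd4, 0 UMIs over Cd8a and Cd8b1, and at most 2 UMIs over the B cell receptor subunits Cd79a and Cd79b. The WT library gave 226 such cells of 8071 barcodes, the C library 160 of 9981, the K library 208 of 8105 and the CK library 310 of 12852. No barcode sequence was shared between libraries among these cells, and 0 of the 9804 annotated GC B cells met the same UMI limits.

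The study followed splenic B220+IgD- cells, a GC-enriched B cell fraction, 10 days after immunization with sheep red blood cells (SRBC). Spleen cells were enriched with B220 beads and then sorted by flow cytometry, so T cells were not the sorted target and their number depends on what passed the sort, whose part was not tested. All mice were on the C57BL/6J background and all carried Cγ1-cre/+, WT included. WT mice had no floxed allele, C mice were Crebbp fl/+, K mice were Kmt2d fl/+ and CK mice carried both floxed alleles. Cγ1-cre acts in B cells that enter the GC and switch antibody class, and is not a T cell driver, but deletion in the T cells described here was not tested. The study describes the mice as females aged 8 weeks. In the CD4 T cells of all 4 libraries, however, the Y-linked genes Ddx3y, Eif2s3y, Uty and Kdm5d were detected (Ddx3y at 48, 31, 37 and 41 UMIs in WT, C, K and CK), and Xist, the RNA of the inactive X chromosome, had 0 UMIs. Each genotype was 1 mouse and 1 library, so genotype, mouse and library cannot be told apart and no test between genotypes was made.

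CD4 helper T cells recognise antigen on MHC class II and direct other immune cells. In the GC, follicular helper cells carry CXCR5 and PD-1 (Pdcd1), depend on the transcription factor BCL6, and help B cells through ICOS, CD40 ligand, IL-21 and IL-4. Regulatory T cells express FOXP3 and restrain immune responses, and some of them, named follicular regulatory cells, share the follicular program. Naive T cells recirculate through lymphoid tissue with the help of CCR7 and S1PR1, under the transcription factors KLF2, LEF1 and TCF7.

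The selected cells expressed the helper markers in every library. Levels are given as CPM, the UMIs of a gene for each 1e+06 UMIs summed over a group of cells, and sets of 4 values follow the sequence WT, C, K, CK. Izumo1r, which encodes folate receptor 4 of helper and regulatory cells, stood at 678, 910, 957 and 740 CPM, against 30.6, 26.9, 60.3 and 47.5 CPM in the CD8 T cells of the same libraries. Maf, a transcription factor of IL-4 and IL-21 production, stood at 428, 419, 339 and 357 CPM in CD4 T cells and at 7.79, 3.5, 7.65 and 13.9 CPM in CD8 T cells. Tbc1d4, a Rab GTPase-activating protein, was at 355, 367, 292 and 304 CPM in CD4 T cells and at 13.3, 3.5, 6.43 and 15.4 CPM in CD8 T cells. The 2 cell groups did not overlap for any of these 3 genes, but the share of all genes without overlap was not counted. Icos, the costimulatory receptor of helper cells, was at 211, 229, 236 and 178 CPM, against 28, 29.6, 34 and 36.7 CPM in CD8 T cells. Cd4 itself, which chose the cells, was at 382, 477, 413 and 456 CPM. At least 1 Izumo1r UMI was seen in 76.1%, 76.9%, 77.9% and 72.6% of the cells, and at least 1 Icos UMI in 42.0%, 38.8%, 40.9% and 35.2%, at median depths of 3013.5, 2262, 2632.5 and 1978.5 UMIs a cell. All 4 markers that were not part of the selection were thus higher than in the CD8 T cells of every library. They were chosen with earlier results of these data known, so this describes the cells and does not check the label. CD8 T cells were the only comparison, so it does not separate helper cells from other CD4 T cells.

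**Figure D1:**
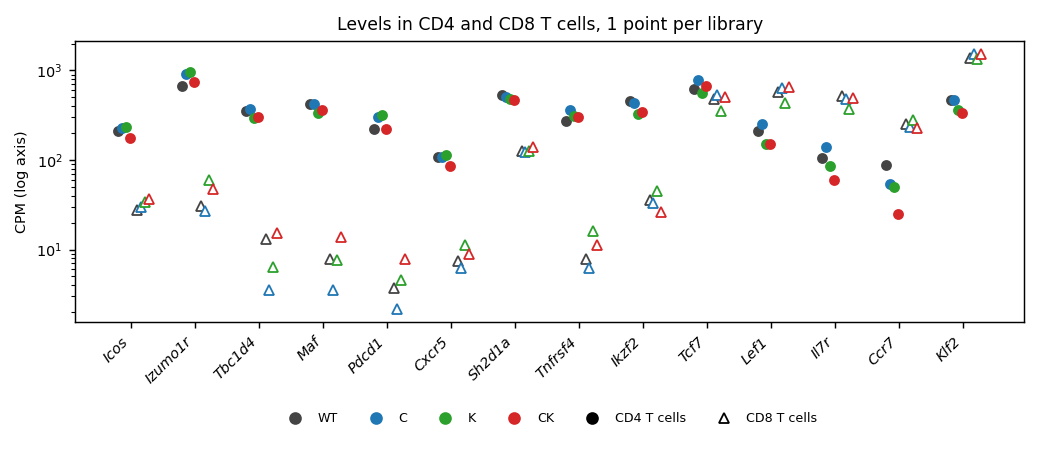
Levels of helper, regulatory and naive genes (CPM, log axis, 1 point per library, colored by genotype) in CD4 T cells (filled circles) and CD8 T cells (open triangles). Izumo1r lies between 678 and 957 CPM in CD4 T cells and between 26.9 and 60.3 CPM in CD8 T cells, while Klf2 lies between 332 and 470 CPM in CD4 T cells and between 1360 and 1548 CPM in CD8 T cells.

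The genes of these markers lie at chr6:124864692-124888221 (Cd4, minus strand), chr1:60977927-61000320 (Icos, plus), chr9:14885814-14903949 (Izumo1r, minus), chr14:101442360-101609191 (Tbc1d4, minus) and chr8:115682942-115707794 (Maf, minus) in GRCm38, the assembly that mm10 names. The promoters of Izumo1r and Tbc1d4, and of Pdcd1 (gene at chr1:94038305-94052553, minus), are printed as those of 2 helper markers and of Pdcd1, the highest of the 6 genes chosen by fold change of CD4 over CD8 T cells (average of at least 50 CPM, 1 direction in all 4 libraries). Each sequence holds the 250 bases before the gene's RefSeq start (GRCm38.p6), on the gene's own minus strand. For Izumo1r that start lies inside the gene span given above, so part of its window lies there too. Capitals mark GGAAA, the core motif bound by NFAT factors of T cell receptor signaling, read on either strand (TTTCC as printed).
Izumo1r, chr9:14903768-14904017: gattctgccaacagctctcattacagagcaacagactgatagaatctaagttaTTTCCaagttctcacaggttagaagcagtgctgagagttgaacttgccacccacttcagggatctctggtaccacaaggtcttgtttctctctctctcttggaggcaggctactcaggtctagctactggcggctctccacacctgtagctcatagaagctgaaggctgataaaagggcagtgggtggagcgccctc
Tbc1d4, chr14:101609192-101609441: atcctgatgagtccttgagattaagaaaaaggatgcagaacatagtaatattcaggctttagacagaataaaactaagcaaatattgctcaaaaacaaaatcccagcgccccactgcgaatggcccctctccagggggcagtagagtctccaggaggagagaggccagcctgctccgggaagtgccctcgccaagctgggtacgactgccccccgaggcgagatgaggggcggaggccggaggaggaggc
Pdcd1, chr1:94052554-94052803: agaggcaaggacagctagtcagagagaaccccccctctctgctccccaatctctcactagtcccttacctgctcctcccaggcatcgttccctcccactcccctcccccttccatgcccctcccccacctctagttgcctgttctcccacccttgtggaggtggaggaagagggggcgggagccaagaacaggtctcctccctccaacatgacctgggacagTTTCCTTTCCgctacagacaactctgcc
GGAAA was found 2 times in the Pdcd1 window, 1 time in the Izumo1r window and 0 times in the Tbc1d4 window, and 55.6% of the 32851 RefSeq promoter windows of this length hold it. The AP-1 motif TGANTCA was in none of the 3 windows and in 6.75% of all windows.

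Some limits of the selection had many barcodes on both sides. Of the 904 cells, 668 held exactly 1 Cd4 UMI, and 1800 further barcodes met every other limit but had neither a Cd4 nor a Cd8 UMI, and were left out. Another 97 barcodes held both Cd4 and Cd8 UMIs. With 8 cells at exactly 2 Cd3 UMIs and 0 barcodes excluded at 1, the Cd3 limit removed nothing near its edge. At the Cd79 limit, 56 cells held exactly 2 UMIs, 14 otherwise eligible barcodes held 3 and 139 held more than 3. At the mitochondrial limit, 123 cells had 7% or more and 56 barcodes outside had 8% to 9%. Scrublet, a doublet caller, marked 2, 2, 2 and 5 of the cells, which were kept.

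RNA of other cell types was low but present. The 12 B lineage genes summed to 2179, 2763, 2003 and 1809 CPM in the CD4 T cells (0 of 12 at 0), close to the 1992, 1982, 1685 and 2142 CPM in CD8 T cells and far below the 56173 to 62472 CPM in annotated GC B cells. Cd79a and Cd79b are among the 12, and the selection limited both in CD4 and in CD8 T cells. Part of the low T cell sums was thus set in advance. In the C library 1 cell held 22.7% of the B lineage UMIs. NK and innate genes (8 genes) summed to between 6.05 and 63.6 CPM, with the NK receptor gene Ncr1 at 0 in C and CK. Myeloid and plasmacytoid dendritic genes (6 genes) summed to between 122 and 168 CPM, and the dendritic cell marker Clec9a was at 0 in all 4 libraries. Hemoglobin genes summed to between 1.51 and 11.2 CPM, against 8.28 to 1614 CPM in CD8 T cells. The part of this RNA in the results was not tested.

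CD4 T cells made up 3.90% of WT barcodes under the mitochondrial limit (226 of 5800, exact 95% interval 3.41 to 4.43), 1.91% of C (160 of 8387, 1.63 to 2.22), 3.02% of K (208 of 6881, 2.63 to 3.46) and 2.91% of CK (310 of 10650, 2.60 to 3.25). All intervals here and below are 95% intervals that cover counting error only. The C share was 1.99 percentage points lower than WT (difference −1.99, interval −2.58 to −1.42), K differed by −0.87 points (−1.52 to −0.24) and CK by −0.99 points (−1.60 to −0.41). The cells had different depths, and a shallow cell more easily misses its Cd4 UMI. Every barcode with at least 1000 UMIs was therefore thinned to 1000 before the selection, and shallower barcodes were left out. Of the CD4 T cells 1, 2, 0 and 10 were that shallow. The shares were then 1.36% (1.08 to 1.70), 1.08% (0.865 to 1.32), 1.49% (1.21 to 1.81) and 1.36% (1.14 to 1.60) in WT, C, K and CK. The C share was then 0.29 points under WT (−0.29, −0.68 to 0.08), and the K share turned to 0.12 points above it (0.12, −0.30 to 0.54). At equal depth the interval of each of the 3 differences from WT included 0 (CK −0.00655, −0.40 to 0.36). A mitochondrial limit of 5% moved the differences the other way, to −2.66, −2.61 and −2.24 points. CD4 T cells were 19.6%, 10.7%, 16.9% and 13.6% of all CD4 and CD8 T cells so selected.

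**Figure D2:**
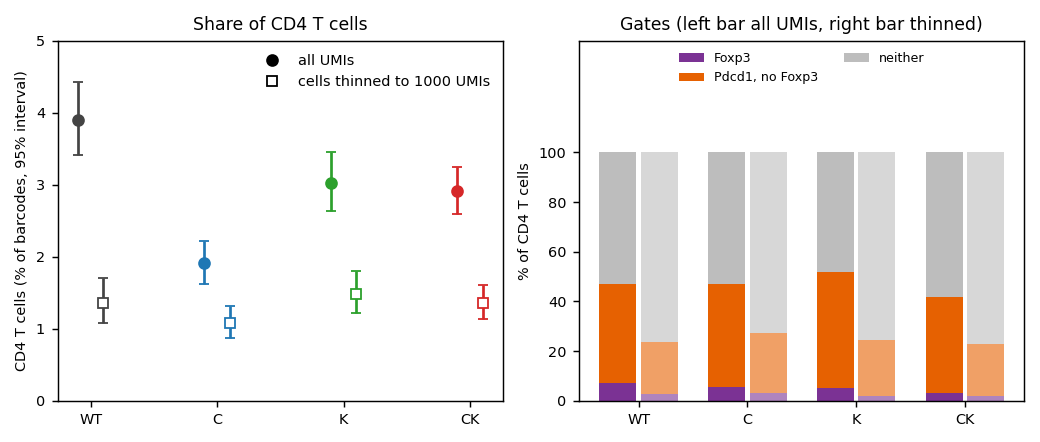
Left, CD4 T cells as a percentage of barcodes in each library, with all UMIs (filled) and after thinning each barcode to 1000 UMIs, shallower ones left out (open), with exact 95% intervals. WT is highest with all UMIs (3.90%) and the 4 libraries lie between 1.08% and 1.49% after thinning. Right, the percentage of CD4 T cells in each of 3 gates (Foxp3, Pdcd1 without Foxp3, neither), with all UMIs (left bar) and after thinning (right bar).

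To ask which programs set these cells apart from the other T cells in the same sort, UMIs were summed per library and compared with those of CD8 T cells chosen by the mirror rule (929, 1340, 1020 and 1973 cells). CD4 T cells were higher in the follicular helper program and lower in the naive program. Of 8752 genes tested, 1743 (19.9%) were higher and 1524 (17.4%) lower (edgeR quasi-likelihood test with library as a block, Benjamini-Hochberg adjusted p under 0.05). All 23 follicular helper genes were higher, with a median log2 fold change of 3.65 against −0.01 over all genes. Pdcd1, the PD-1 inhibitory receptor, stood at 224, 304, 314 and 220 CPM in CD4 T cells and at 3.75, 2.15, 4.59 and 7.83 CPM in CD8 T cells, a log2 fold change of 5.45 (SE 0.18, edgeR adjusted p = 1.27e-15). Sostdc1, a secreted BMP and WNT antagonist made by follicular helper cells, was at 225, 400, 352 and 202 CPM against 0.865, 5.91, 9.49 and 10.3 CPM (log2 fold change 5.08, SE 0.21, edgeR adjusted p = 2.49e-14). The HMG-box factor Tox2 (log2 fold change 5.18) and Nav2 (5.26) completed the genes with the greatest rise by the naming rule, together with Maf and Tbc1d4. The groups did not overlap for any of them, which a choice by greatest fold change and 1 direction in all 4 libraries makes likely in advance. The share of genes without overlap among all genes tested was not counted.

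The cytokines and lineage factors of helper cells were seen in few cells but almost nowhere in CD8 T cells. Il21, the GC cytokine, was found in 12.4%, 11.9%, 5.77% and 9.35% of CD4 T cells (6.67%, 6.33%, 0.96% and 4.67% after thinning to 1000 UMIs) and in at most 0.203% of CD8 T cells of any library. Il4 was found in 9.73%, 14.4%, 13.0% and 8.39% of CD4 T cells (4%, 7.59%, 5.29% and 5.33% thinned), against at most 0.405% of CD8 T cells. Cxcr5, the receptor that guides cells into follicles, was at 107, 108, 115 and 85.2 CPM in CD4 T cells and between 6.18 and 11.3 CPM in CD8 T cells. Bcl6 was at 22.3, 35.1, 28.7 and 33.6 CPM, against 2.96 to 4.48 CPM.

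Of the 15 naive genes, 13 were lower in CD4 than in CD8 T cells, 1 was higher (Tcf7) and Nsg2 passed in neither direction (list median −2.17). Klf2, which drives S1pr1, was at 463, 470, 361 and 332 CPM in CD4 T cells and at 1388, 1531, 1360 and 1548 CPM in CD8 T cells. Ccr7, the receptor for entry into T cell zones, was at 88.2, 53.8, 49.9 and 24.7 CPM, against 227 to 277 CPM. Tcf7 did not follow them: it stood at 618, 786, 562 and 669 CPM in CD4 T cells and 482, 535, 350 and 507 CPM in CD8 T cells, and its call was lost in DESeq2, without the block, without the low-count filter, and without C or K. Of the 13 testable regulatory genes (of 23), 11 were higher, and Itgae, the αE integrin, was lower. The T helper 1 list had Ifng higher and 5 genes lower (8 of 9 tested), and the T helper 2 genes Gata3 and Ccr4 were both higher. The T helper 17 list was nearly silent, at 0 to 4.54 CPM in all 4 libraries, with Il17a, Il17f, Il22 and Il23r at 0 throughout. All 10 cell cycle genes were higher in CD4 T cells (list median 1.98), as were 8 of 11 memory and activation genes.

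By the naming rule, the genes with the lowest values in CD4 T cells included several known from cytotoxic cells. Ly6c2 (log2 fold change −6.87), the NK receptor gene Klrd1 (−5.29), the cathepsin gene Ctsw (−4.13), Fam46a (−3.83) and Cd7 (−3.72) were lower in all 4 libraries. Hbb-bs, a β-globin gene, had the lowest value (−7.02). On the TMM-scaled CPM of the test it was 158, 654, 1291 and 4.61 in CD8 T cells, so its level there differed widely by library, and 6.85, 2.04, 0 and 2.02 in CD4 T cells. Of 80 ribosomal protein genes, 78 were lower in CD4 T cells (median −0.96).

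Every CD4 T cell was then placed in 1 of 3 gates, in order: at least 1 Foxp3 UMI, otherwise at least 1 Pdcd1 UMI, and the remaining cells. Foxp3-positive cells were 46 of 904 (16, 9, 11 and 10 in WT, C, K and CK), Pdcd1-positive cells 372 (90, 66, 97 and 119), and 486 cells had neither UMI (120, 85, 100 and 181). A gate needs only 1 UMI, so a cell outside it may still express the gene. The background of this reading was low: CD8 T cells held a Foxp3 UMI in 0.215% to 0.448% and a Pdcd1 UMI in 0.448% to 1.18% of cells, at median depths of 2069 to 3526 UMIs, against 3.23% to 7.08% and 40% to 49.0% of CD4 T cells.

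Foxp3 and Pdcd1 were found in the same cell about as often as their single shares give. Pdcd1 was detected in 43.5% of Foxp3-positive and 43.4% of Foxp3-negative CD4 T cells, and 20 of the 392 cells with Pdcd1 also held Foxp3 (5.10%, 3.14 to 7.77). Among cells with both Pdcd1 and Cxcr5, the follicular surface pair, 125 held no Foxp3 UMI and 3 held at least 1. By library, Foxp3 was in 6.25%, 5.71%, 4.90% and 4.03% of Pdcd1-positive cells, with intervals that overlap widely (2.33 to 13.1 in WT and 1.32 to 9.16 in CK).

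Pdcd1-positive cells were 39.8%, 41.3%, 46.6% and 38.4% of CD4 T cells, and the interval of each difference from WT included 0 (CK −1.44 points, −9.79 to 6.84). Foxp3-positive cells were 7.08%, 5.63%, 5.29% and 3.23%. CK was 3.85 points under WT (−3.85, −8.22 to −0.12), and after thinning the CD4 T cells already selected, with 6, 5, 4 and 6 cells left in the gate, the difference was −0.67 points (−3.88 to 2.04). Cells with neither UMI were 53.1%, 53.1%, 48.1% and 58.4%, and 76.4%, 72.8%, 75.5% and 77% after thinning to 1000 UMIs, so a cell's gate depends on its depth. The intervals of their differences from WT all included 0 (CK 5.29 points, −3.19 to 13.7).

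Foxp3-positive cells had higher levels of regulatory genes. In a test against the Foxp3-negative CD4 T cells, 30 of 3572 genes (0.84%) were higher and 21 (0.588%) lower (edgeR, adjusted p under 0.05). Of the 9 regulatory genes that could be tested (of 23, Foxp3 itself left out), 6 were higher and 0 lower, with a list median of 1.64 against −0.06 over all genes. Tnfrsf4, the OX40 costimulatory receptor, stood at 1156, 2128, 912 and 1135 CPM in Foxp3-positive cells, and at 186, 409, 331 and 320 CPM in the Pdcd1 gate. Its log2 fold change was 2.27 (SE 0.20, edgeR adjusted p = 4.40e-14), and the lowest Foxp3-positive library was above the highest of the other gates (409 CPM). The share of all genes without such overlap was not counted. Ikzf2, which encodes Helios, was at 1156, 1419, 804 and 858 CPM in Foxp3-positive cells and 505, 502, 375 and 364 CPM in the Pdcd1 gate (log2 fold change 1.48, SE 0.19). The actin capping gene Capg (2.21), the GITR gene Tnfrsf18 (1.73), the checkpoint receptor Ctla4 (1.64) and the 4-1BB gene Tnfrsf9 (1.79) were the other 4.

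Outside the list, the interferon-induced GTPase Gbp7 (log2 fold change 2.45), the interferon γ receptor Ifngr1 (2.02) and the tetraspanin Cd81 (1.96) rose in Foxp3-positive cells in all 4 libraries. Of the 11 memory and activation genes, 4 were higher (Vim, S100a10, Lgals1 and S100a4), 0 lower and 7 passed in neither direction. Lgals1 and S100a4 rose in 3 libraries only. On TMM-scaled CPM, Lgals1 was at 241 against 265 in C, and S100a4 at 0 against 65.1 in CK. The B cell gene Ighm was higher as well (log2 fold change 0.85, edgeR adjusted p = 0.0087), and the 12 B lineage genes summed to 2795, 2554, 3083 and 2241 CPM in this gate. The part of that RNA in the other differences was not tested.

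Some follicular helper and naive genes were lower. Tcf7 stood at 146, 94.6, 268 and 111 CPM in Foxp3-positive cells and at 664, 875, 495 and 663 CPM in the Pdcd1 gate, a log2 fold change of −2.13 (SE 0.28, edgeR adjusted p = 5.59e-08). Of 17 follicular helper genes tested (of 23), 0 were higher and 3 lower: Sostdc1 (−1.73), the CD30 ligand gene Tnfsf8 (−2.89) and Cd40lg (−3.54, edgeR adjusted p = 0.0326), the ligand that helper cells show to CD40 on B cells. In the Foxp3 gate Cd40lg was detected in K only, and Sostdc1 and Tnfsf8 in WT and K only. The list median was −0.03. Of 11 naive genes tested (of 15), 2 were lower, Tcf7 and Nsg2, and 0 higher (list median −0.77). Il21 had 0 UMIs in the Foxp3 gate of every library. Maf, at 673, 615, 509 and 83.0 CPM, Izumo1r, at 820, 2317, 858 and 885 CPM, Icos (log2 fold change 0.63, edgeR adjusted p = 0.398) and Cxcr5 (−1.03, edgeR adjusted p = 0.496) did not pass the test. Also lower were Rflnb (−4.77), Commd8 (−3.94), the chemokine Ccl5 (−3.56) and Nsg2 (−3.26). Within the gate Rflnb was detected in WT only, Commd8 in C only and Nsg2 in WT and K only. The Foxp3 gate held few cells, and 1 library moved the counts: without C, 18 genes were higher and 12 lower. Sostdc1 and Tnfrsf9 lost their calls without C, Cd40lg without WT, C or CK, Commd8 without WT, K or CK, and Nsg2 without WT. Without the library block Sostdc1, Ccl5, Cd40lg and Tnfrsf9 lost theirs. In cells with no Cd79 UMI Sostdc1, Tnfsf8, Commd8 and Nsg2 did, and Sostdc1 also in DESeq2. When the CD4 T cells themselves were selected again after thinning, 2, 1, 0 and 3 Foxp3-positive cells were left, and 0 of 564 genes passed in edgeR (67 at an unadjusted p under 0.05).

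**Figure D3:**
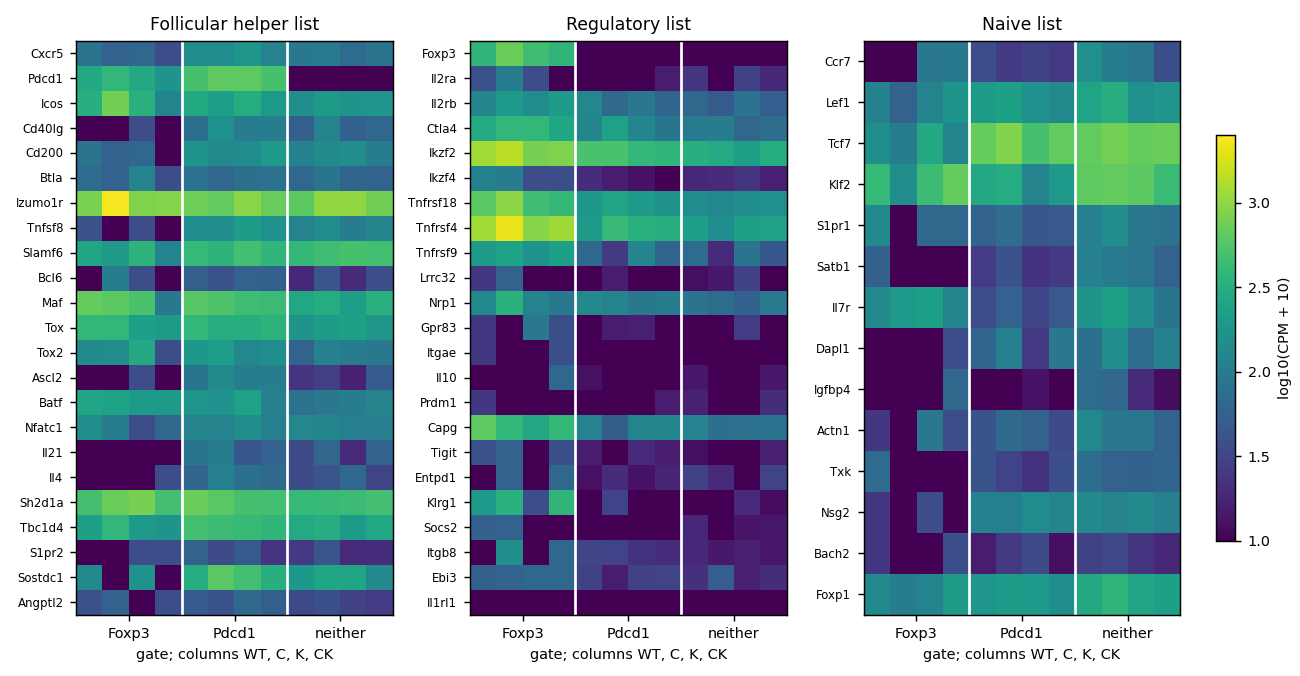
Levels of the follicular helper, regulatory and naive genes, as log10(CPM + 10), in the 3 gates of CD4 T cells. Within each gate the columns are WT, C, K and CK. Tnfrsf4 reaches 912 to 2128 CPM in the Foxp3 gate and at most 409 CPM elsewhere, and Klf2 is at 107 to 295 CPM in the Pdcd1 gate and 426 to 661 CPM in cells with neither UMI.

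Pdcd1-positive cells had higher levels of follicular helper genes than Pdcd1-negative cells. They were compared with CD4 T cells that held neither Foxp3 nor Pdcd1. Of 4574 genes, 136 (2.97%) were higher and 169 (3.69%) lower. Of 21 follicular helper genes tested (of 23, Pdcd1 left out), 11 were higher and 0 lower, with a list median of 0.74 against 0.01 over all genes. Ascl2, the factor that turns on CXCR5, had a log2 fold change of 2.06 (SE 0.29, edgeR adjusted p = 9.45e-07). It stood at 75.5, 129, 91.4 and 94.3 CPM in the Pdcd1 gate and 13.1, 18.8, 6.52 and 40 CPM in the cells with neither UMI, so the groups did not overlap. For this and the genes below, the share of all genes without overlap was not counted. Sostdc1 was at 297, 606, 470 and 317 CPM in the Pdcd1 gate (log2 fold change 0.94, SE 0.12, edgeR adjusted p = 2.85e-07). Maf (0.79), Tox (0.76), Tox2 (0.94) and Tbc1d4 (0.60) were also higher. Like all 23 follicular helper genes, they were higher in CD4 than in CD8 T cells. The Pdcd1-positive cells are part of the CD4 T cells of that comparison, so the 2 results are not independent.

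Cxcr5, with 146, 135, 177 and 105 CPM in the Pdcd1 gate and 81.0, 89.1, 58.6 and 73.8 CPM in the cells with neither UMI, was higher by 0.79 (edgeR adjusted p = 0.0032), and both Cxcr5 and Tox2 lost their call in 4 alternatives, DESeq2 among them. Batf (0.74), Icos (0.48), Il4 (0.89) and Bcl6 (1.11, edgeR adjusted p = 0.0476) passed more narrowly, and each of them lost its call in at least 5 of the alternatives. Izumo1r (log2 fold change −0.22, edgeR adjusted p = 0.219), Cd200 (0.38, 0.221), Il21 (0.80, 0.0908) and Cd40lg (0.63, 0.0673) did not pass.

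The neuropeptide gene Gal had the greatest rise of all (log2 fold change 5.93, SE 0.45, edgeR adjusted p = 1.91e-14). On the TMM-scaled CPM of the test it was 94.4, 173, 143 and 98.2 in Pdcd1-positive cells and 2.38, 0, 0 and 2.26 in Pdcd1-negative cells, with no overlap. The cathepsin gene Ctsl (2.46), the arginine deiminase gene Padi4 (2.03) and Cxxc5 (1.66) rose in all 4 libraries. Ube2c (1.51), a gene of mitotic exit, rose with 8 of the 10 cell cycle genes (list median 0.93). The 10 genes summed to 2080, 1264, 788 and 2667 CPM in the Pdcd1 gate. In the cells with neither UMI they summed to 731, 558, 899 and 1547 CPM, so K went the other way in these sums. The cell cycle UMIs sat in few cells: 30.1%, 41.4%, 30.4% and 12.1% of them came from 1 cell of the Pdcd1 gate in WT, C, K and CK. In the cells with neither UMI 1 cell held 29.3%, 59.7%, 53.6% and 16.6%. With equal weight for each cell the means were 660, 538, 463 and 1137 CPM in the Pdcd1 gate. They were 354, 297, 429 and 673 CPM in the cells with neither UMI, so K was not reversed there.

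Naive genes were lower in Pdcd1-positive cells. Of 12 tested (of 15), 8 were lower and 0 higher, with a median of −1.17. Klf2 was at 270, 295, 107 and 183 CPM in the Pdcd1 gate, and at 630, 661, 616 and 426 CPM in the cells with neither UMI (log2 fold change −1.55, SE 0.14, edgeR adjusted p = 2.28e-12). Every library of the Pdcd1 gate was below every library of those cells. The IL-7 receptor gene Il7r (−2.21), the chromatin organizer Satb1 (−2.20), Foxp1 (−0.72), S1pr1 (−1.18), Actn1 (−1.18) and Txk (−1.17) were also lower. Arl4c (−1.81) and Slfn1 (−1.29), in no list here, fell alike. Of 8 regulatory genes tested, Ikzf2 (0.53) and Ctla4 (0.63) were higher (Ctla4 lost its call in 8 alternatives and Ikzf2 in 3), 67 of 80 ribosomal protein genes were lower (median −0.38), and of the B lineage genes Ighm was higher while Cd74 and H2-Aa were lower. Without WT, 73 genes were higher in place of 136.

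**Figure D4:**
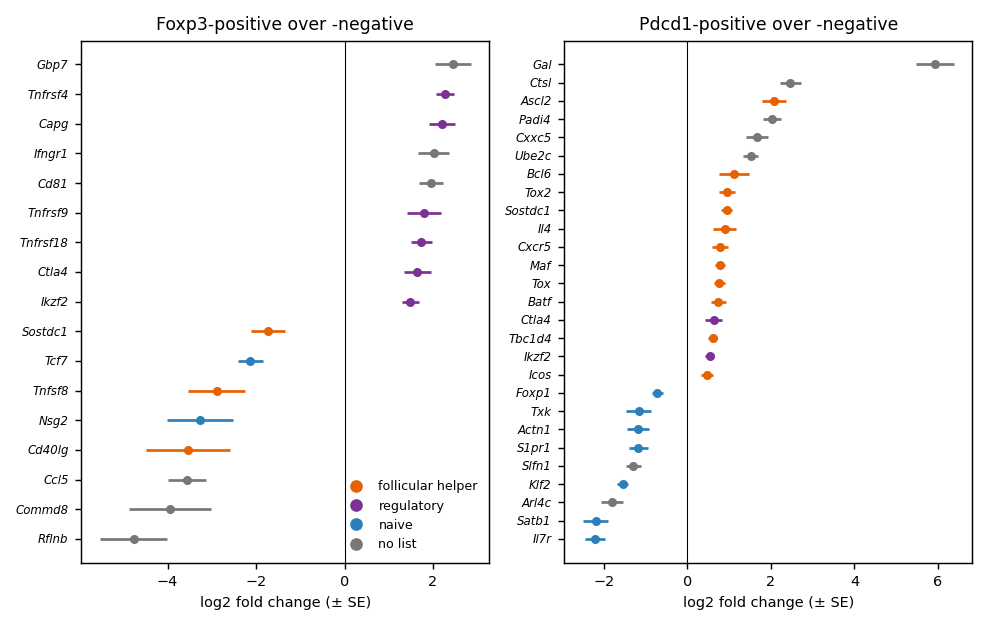
Log2 fold changes (points, ± SE) of the named genes in the 2 comparisons within CD4 T cells, by edgeR over 4 libraries, colored by gene list (gray genes are in none of these 3 lists). Gal leads the Pdcd1 comparison at 5.93, and Tnfrsf4 is at 2.27 in the Foxp3 comparison.

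The 486 cells with neither UMI had summed follicular helper levels between those of the Pdcd1 gate and of CD8 T cells. The 23 follicular helper genes summed to 3176, 4132, 3737 and 3585 CPM there, 5695, 5826, 5920 and 4939 CPM in the Pdcd1 gate (which selects on 1 of the 23) and 538 to 661 CPM in CD8 T cells. The 15 naive genes summed to 2880, 3175, 2460 and 2105 CPM in these cells and to 1662, 2056, 1267 and 1494 CPM in the Pdcd1 gate. Izumo1r was at 615, 999, 994 and 769 CPM and Maf at 256, 295, 209 and 322 CPM. Il21 was at 26.3, 51.6, 9.77 and 46.4 CPM. The Foxp3 gate, with 4332, 6478, 4504 and 2601 CPM of follicular helper genes, ranged most between libraries.

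Between genotypes, genes with at least 20 UMIs over a pair of libraries were called at a fold of 1.5, which is a description and not a test. Over WT, 532 of 6580 genes (8.09%) were higher and 742 (11.3%) lower in C, 341 of 6811 (5.01%) higher and 1581 (23.2%) lower in K, and 509 of 7294 (6.98%) higher and 712 (9.76%) lower in CK. The median gene was shifted by −0.15 log2 units in K, against 0.01 in C and −0.02 in CK, so K values are read against −0.15.

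The 23 follicular helper genes summed to 4307, 5013, 4827 and 4124 CPM in WT, C, K and CK, which put C at a log2 ratio over WT of 0.22 (0.14 to 0.30). K stood at 0.16 (0.10 to 0.23) and CK at −0.06 (−0.13 to 0.00). These values moved both ways: C was at 0.10 and K at 0.06 with equal weight for each cell, C at 0.10 (−0.03 to 0.23) and K at 0.05 (−0.07 to 0.18) after thinning, C at 0.37 without Cd79 UMIs and 0.35 relative to CD8 T cells, and K at 0.25 with median-ratio scaling. C had 6 genes past the fold above WT and 0 below (list median 0.05), while K (0.16) and CK (−0.11) each had 2 above and 1 below. Of all genes, 8.09% were above and 11.3% below in C, 5.01% and 23.2% in K, and 6.98% and 9.76% in CK. Sostdc1 had 202, 171, 233 and 180 UMIs in WT, C, K and CK, and a log2 ratio of 0.83 in C (0.52 to 1.13) and 0.64 in K (0.37 to 0.92), whereas CK was at −0.16 (−0.46 to 0.14). Izumo1r was higher in the same 2 libraries, by 0.43 in C and 0.50 in K. Cd40lg, with 50.2, 122, 68.0 and 69.5 CPM, stood out in C (log2 ratio 1.28, 0.67 to 1.88). Il21, with 44.7, 67.8, 21.2 and 44.8 CPM, was lowest in K (−1.08, −2.07 to −0.17) and equal in WT and CK (0.01, −0.66 to 0.68).

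The 23 regulatory genes summed to 1565, 1572, 1374 and 1296 CPM, log2 ratios of 0.02 (−0.12 to 0.16), −0.18 (−0.30 to −0.06) and −0.26 (−0.38 to −0.15) in C, K and CK. The K interval includes the shift of its median gene (−0.15), but after thinning K was at −0.38 (−0.61 to −0.16) and in cells with no Cd79 UMI at −0.37 (−0.54 to −0.21), past the median gene of those settings (−0.08 and −0.13). C had 2 genes above the fold and 3 below it among 13, K had 0 and 1 among 11, and CK had 1 and 2 among 13. The shares over all genes were 8.09% and 11.3% in C, 5.01% and 23.2% in K, and 6.98% and 9.76% in CK. Foxp3 had 25, 15, 17 and 13 UMIs, and its interval in CK included 0 (log2 ratio −0.94, −2.03 to 0.08).

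The naive genes had lower sums in K and CK than in WT. They summed to 2253, 2545, 1841 and 1821 CPM, log2 ratios of 0.18 (0.07 to 0.28), −0.29 (−0.39 to −0.19) and −0.30 (−0.40 to −0.21) in C, K and CK, with 6 of 14 genes past the fold below WT and 1 above it in CK. Of all genes in CK, 9.76% were below and 6.98% above. In K, 4 of 15 naive genes were past the fold below WT and 0 above (list median −0.43). Of all genes in K 23.2% were past the fold below WT, and the median gene was at −0.15. Relative to CD8 T cells the K ratio of the naive genes was −0.08. The CK ratio was −0.18 both after thinning and with equal weight for each cell, where the regulatory genes were at −0.30 and −0.20. Ccr7 fell from 79 UMIs in WT (35 cells) to 22 in CK (19 cells), with 23 in C and 33 in K, and its log2 ratio in CK was −1.84 (−2.59 to −1.14), or −0.86 after thinning (−2.13 to 0.36). Igfbp4, an insulin-like growth factor binding protein gene of naive T cells, had 28, 11, 4 and 3 UMIs. Dapl1 went the other way, with 54.7, 119, 34.8 and 90.8 CPM (0.73 in CK, 0.20 to 1.27), and Tcf7 was level (0.11 in CK, −0.06 to 0.28). In the CD8 T cells the Ccr7 ratio of CK over WT was −0.15 and that of Klf2 was 0.16, against −0.48 for Klf2 in CD4 T cells.

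**Figure D5:**
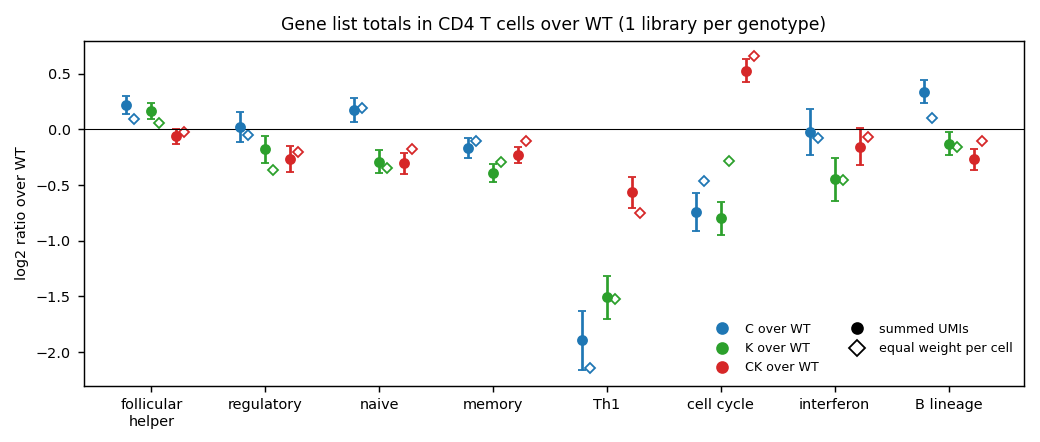
Log2 ratio over WT of the summed UMIs of each gene list in CD4 T cells of C, K and CK (filled circles, 95% intervals for counting error only) and the same ratio with every cell given equal weight (open diamonds). The naive list is at −0.29 in K and −0.30 in CK, and the T helper 1 list is at −1.89 in C.

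The T helper 1 and cell cycle lists had much of their RNA in a few cells. The T helper 1 genes summed to 1221, 325, 422 and 817 CPM, which put C at −1.89, K at −1.51 and CK at −0.57 over WT (log2), and 5 cells held 66.5% of the WT UMIs of this list. Ccl5, a chemokine of cytotoxic and effector cells, had 713 UMIs in 21 WT cells, 255 of them in 1 cell, against 30, 109 and 423 in C, K and CK. With equal weight for each cell the ratios of the list were −2.14, −1.53 and −0.75. The cell cycle genes summed to 1439, 863, 827 and 2073 CPM, a log2 ratio of 0.53 in CK (0.42 to 0.63), −0.74 in C and −0.80 in K. In CK 1 cell held 6.65% of these UMIs, against 18.0% in WT, and the ratio turned to −0.51 when it was taken relative to the CD8 T cells and to −0.01 in cells with no Cd79 UMI.

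By the naming rule, the genes furthest above WT in CK were Gzmk, a granzyme gene (18, 0, 1 and 59 UMIs in WT, C, K and CK, log2 ratio 1.72, 0.94 to 2.57), the calmodulin-binding gene Nrgn (24, 14, 30 and 74, 1.63), the spindle gene Tpx2 (29, 7, 12 and 86, 1.57), the RNA sensor Ifih1 (21, 10, 13 and 55, 1.39) and the centromere motor Cenpe (30, 15, 7 and 71, 1.25). The 59 Gzmk UMIs came from 9 cells, and the 55 Ifih1 UMIs from 37 cells. With equal weight for each cell Gzmk was at 0.44, and after thinning Nrgn was at 0.24 (−1.26 to 1.84). Furthest below WT were Ccl4 (84, 0, 1 and 1 UMIs, of which 76 of the WT UMIs in 1 cell), Spp1 (61, 0, 4 and 15, log2 ratio −2.02), Ccr7 (above), Noc2l (79, 24, 34 and 33, −1.25) and Wsb2 (49, 15, 25 and 22, −1.15). Noc2l and Wsb2 were seen in 49 and 40 WT cells, with at most 13.9% of their UMIs in 1 cell, and after thinning they were at −0.54 (−1.86 to 0.77) and −0.95 (−2.35 to 0.39).

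The targeted genes themselves were at low levels in these T cells. Crebbp was at 83.7, 65.5, 43.8 and 60.5 CPM and Kmt2d at 21.2, 44.4, 7.56 and 10.1 CPM, from 19, 19, 5 and 9 UMIs. The counts come from the 3' end of the RNA, which need not lie in the floxed part, so they do not check the deletion.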

How the data were processed

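Single-cell RNA was measured with the 10x Genomics 3' kit. The deposited values are UMI counts per gene and barcode that the authors made with Cell Ranger (3.0 per the labels) on mm10, after the pipeline's cell calling. The authors used Seurat 4.0 for an annotation table, of which only the barcodes were used here, to leave out annotated GC B cells. The libraries hold 8071 to 12852 barcodes and 31053 genes, and the CD4 T cells 427478 to 895848 UMIs per library. The members, gates and gene lists were chosen with earlier results of these data known.

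UMIs were summed per library and group of cells. Comparisons between groups of cells used edgeR 4.0.16 (R 4.3.3; TMM, filterByExpr, glmQLFit and glmQLFTest, library as block, Benjamini-Hochberg over all genes tested, threshold 0.05), after a check on simulated counts. CPM in the text are unscaled unless TMM is named. Each library is a mouse of another genotype, and cells are not replicates. Comparisons between genotypes had no test: shares have exact Clopper-Pearson intervals, differences Newcombe intervals, and ratios exact conditional binomial intervals (scipy 1.17.1), all at 95%. A gene was called at a fold of 1.5 where the pair of libraries held 20 UMIs of it.

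Named genes were those of the follicular helper, regulatory and naive lists. Added to them were, from each test, the 6 highest and 6 lowest fold changes among genes with adjusted p under 0.05, an average of at least 50 CPM and 1 direction in all 4 libraries, and from CK over WT the 5 highest and 5 lowest ratios among genes that held 50 UMIs in the pair and 50 CPM in either library. Mitochondrial, ribosomal protein, immunoglobulin, T cell receptor variable and unnamed genes and the selecting genes were left out. Genes named outside this rule (of the other lists, and the targeted and Y-linked genes) were chosen after their values were seen.

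Alternatives were DESeq2 1.42.0, other filters and scalings, no block, a limit of 0 Cd79 UMIs, a 5% mitochondrial limit, other denominators, thinning to 1000 UMIs (seed 11, shallower cells left out), ratios relative to CD8 T cells and leaving out each library. Removal of Scrublet calls (scanpy 1.11.5) in the tests and equal weight per cell were added after seeing the data. One gene of the naive list enters its counts and sums but is not reported by itself, nor is the gate and test planned on it. Doublets were kept in all main values. Intervals cover counting error only. The p-values measure how the difference between groups of cells within a library spreads over these 4 libraries.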

Additional observations from a re-analysis of the deposited data

How the results depend on the processing

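The tests in small gates were limited by the number of cells, and the genotype ratios by 1 mouse each, which no setting could mend. The share difference from WT in C, K and CK was −1.20, −0.23 and −0.39 points over all barcodes, −2.66, −2.61 and −2.24 at a 5% mitochondrial limit, and −0.29, 0.12 (turned) and −0.00655 after thinning. Over barcodes outside the annotation K was −0.10 and CK −0.31, and without Cd79 UMIs C was −0.95 and CK −0.14. Log2 ratios of follicular helper genes moved in C to 0.10 (thinned), 0.37 (no Cd79), 0.35 (relative to CD8) and 0.098 (equal weight), in K to 0.25 (median-ratio scaling), 0.054 (thinned), 0.086 (CD8) and 0.061 (equal weight), and in CK to 0.036 (thinned), 0.029 (no Cd79) and −0.23 (CD8). Regulatory genes moved in C to −0.12 (thinned) and 0.20 (CD8), and in K to −0.38 (thinned), −0.37 (no Cd79) and −0.36 (equal weight). Naive genes moved in K to −0.082 (CD8), and in CK to −0.18 (thinned), −0.16 (no Cd79) and −0.18 (equal weight). The B lineage ratio of K turned to 0.11 relative to CD8, and the cell cycle ratio of CK to −0.51 (CD8) and −0.011 (no Cd79). The cause was not tested.

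Genes past the fold (higher and lower) numbered 166 and 226 in C, 104 and 777 in K, and 179 and 260 in CK with 50 UMIs required, and 3072 and 1639, 2080 and 3192, and 2213 and 2363 with 1 UMI. Thinned, they were 341 and 370 in C, 270 and 730 in K, and 468 and 428 in CK, where the split turned. Relative to CD8 T cells K had 754 and 706, so the excess of lower genes in K was not seen there. Median-ratio scaling moved the split to 432 and 945 in C and to 484 and 1328 in K.

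Test counts fell with DESeq2 to 1096 and 896 (CD4 over CD8), 17 and 4 (Foxp3) and 29 and 83 (Pdcd1). Gates set after thinning gave 479 and 515, 0 and 0, and 19 and 37, with far fewer genes tested. Without the library block they were 16 and 11 (Foxp3) and 21 and 18 (Pdcd1). Without Cd79 UMIs Foxp3 had 11 lower and Pdcd1 57 higher. Without the filter Foxp3 had 82 lower. Leaving out each library in turn gave 1361 to 1619 higher and 1207 to 1411 lower (CD4 over CD8), 18 to 36 and 12 to 21 (Foxp3), and 73 to 126 and 118 to 181 (Pdcd1). Of called named genes under all alternatives, 530 of 535 values kept their call for CD4 over CD8, 128 of 151 for Foxp3 and 191 of 243 for Pdcd1, and 0 turned. DESeq2 gave no adjusted p for 7 and 5 values of the last 2 tests, which were not counted. The 3 tests compared groups of cells within each library, and a comparison of genotypes has no replicates.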
